A study of Mus musculus with 6 samples.

Results

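Kinesins are the motor proteins that walk along microtubules, and in sensory neurons they carry vesicles, mitochondria and other cargo from the cell body out along the axon. The genes described here were all annotated mouse genes whose symbol starts with Kif and a number, together with Klc1, Klc2, Klc3 and Klc4, which encode the light chains of kinesin-1. Symbols of the pseudogene form ending in -ps, of which there were 2, were left out. The rule found 44 of 41388 genes. Of these, 38 encode motors and 4 encode light chains. The remaining 2 are not kinesins: Kif1bp encodes a protein that binds KIF1 motors, and Kif16bos is a transcript on the strand opposite Kif16b. The kinesin-14 gene Kifc1 and the kinesin-7 gene Cenpe fall outside the symbol rule and are treated below as mitotic partners.

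A motor of the family couples ATP hydrolysis to movement through a conserved head, and most transport kinesins move toward the plus end of the microtubule, which in an axon points to the tip. Kinesin-1 joins a pair of heavy chains (Kif5a, Kif5b or Kif5c) to a pair of light chains, kinesin-2 (Kif3 genes and Kif17) serves axons and cilia, and kinesin-3 (Kif1, Kif13 and Kif16 genes) carries synaptic vesicle precursors and endosomes. Another set of kinesins builds the mitotic spindle, moves chromosomes and completes cell division, and is expressed mainly in dividing cells.

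RNA was sequenced in 6 libraries of EGFP-positive cells sorted from dorsal root ganglia of spinal levels T11 to S1 of C57BL/6 mouse embryos at 18.5 dpc (days post coitum), 3 libraries from females (A, B and C) and 3 from males (A, C and D). All embryos carried the Ret-EGFP reporter, in which Ret regulatory sequence drives EGFP. The genotype label gives Tg(Ret-EGFP)SJ, while the series text describes EGFP knocked into the Ret locus in heterozygotes, so the cells may carry a single intact Ret allele. No EGFP-negative cells and no wild-type ganglia were analysed here. Female A was a pool of 60 ganglia from 3 embryos, whereas female B and C used 20 ganglia from 1 embryo apiece. Male A was likewise a pool of 60 ganglia from 3 embryos, and male C and D used 40 ganglia from 2 embryos apiece. Total counts were 19615536 to 21734364 in the female libraries and 17861500 to 29330101 in the male libraries.

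Male A stood apart from the other 5 libraries. Of 14958 tested genes, 31.14% had their highest level in male A, against 10.75% to 16.58% in each other library. Summed satellite glia and Schwann cell markers were 895 to 1108 RPKM in females and 968 to 1739 RPKM in males, with 11 of 13 markers highest in male A. Summed fibroblast and meningeal markers were 174 to 224 RPKM in females and 168 to 442 RPKM in males, with 7 of 8 markers highest in male A. Summed sensory neuron markers were 7279 to 10069 RPKM in females and 7530 to 7979 RPKM in males. The level in male A relative to the median of the other 5 libraries also fell with gene length, with a median of 1.10 for tested genes under 2000 bases and 0.696 for those of at least 8000 bases. Results that rest on male A are therefore given with and without it.

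Levels between genes are given as RPKM, the deposited counts scaled to gene length (summed exon, in kilobases) and to library total, with TMM factors (trimmed mean of M values, an edgeR correction for library composition). The kinesin genes spanned a wide range of levels, with 11 of the 44 members at a mean of at least 10 RPKM and 24 at a mean of at least 1 RPKM. Of these 11, 10 belong to the 19 genes listed as axonal transport kinesins. That list holds the heavy and light chains of kinesin-1, the kinesin-2 and kinesin-3 genes, Kif21a and Kif21b. Summed over 42 kinesin genes, the level was 796, 708 and 714 RPKM in female A, B and C, against 624, 820 and 746 RPKM in male A, C and D. The 8 genes with the highest mean made up 86.8% of that sum.

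**Figure D1:**
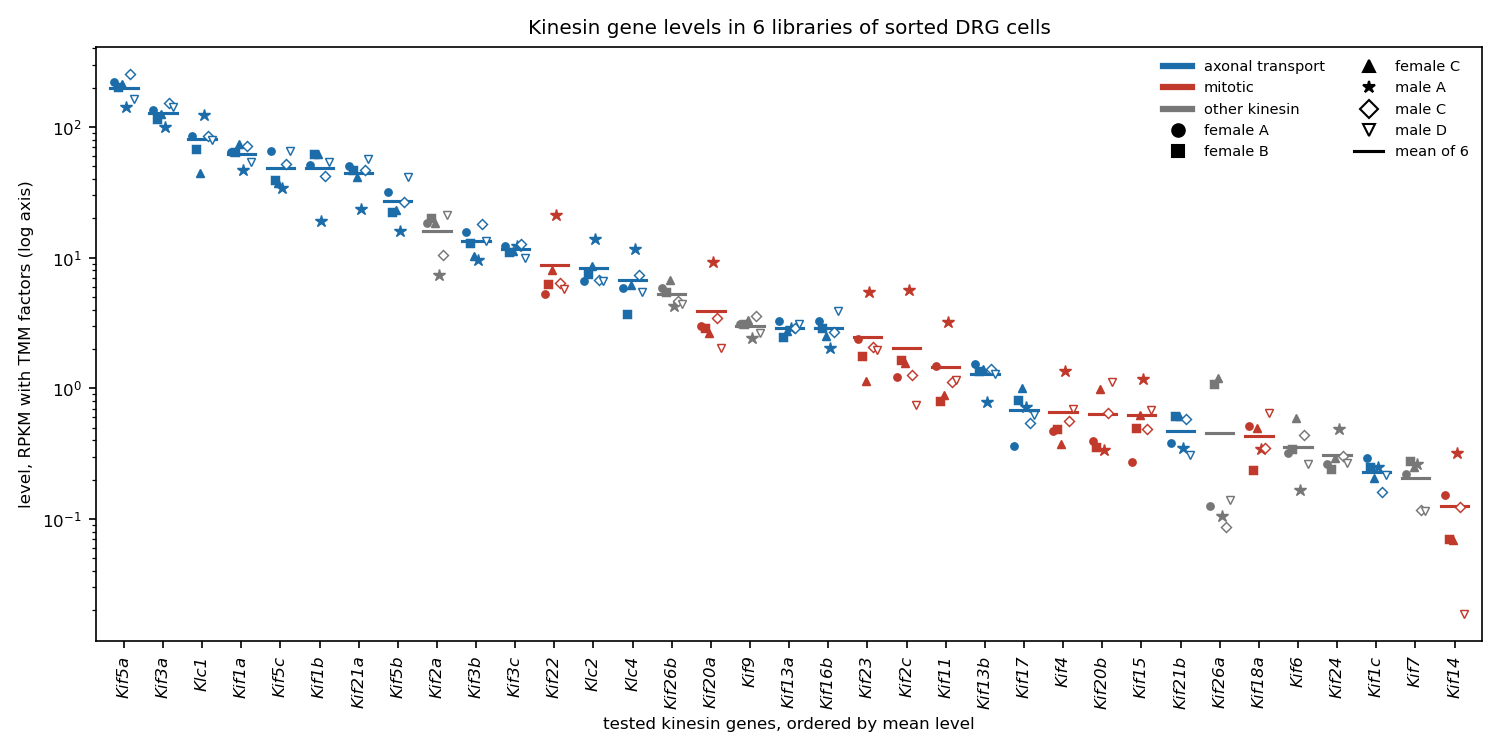
Level of each tested kinesin gene in RPKM with TMM factors (log axis), 1 symbol per library, with the mean of 6 libraries as a bar; filled circles, squares and triangles are female libraries and stars, open diamonds and open inverted triangles are male libraries. The axonal transport genes (blue) fill nearly all of the upper end, and the stars of male A lie above the other symbols for most mitotic genes (red).

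Kinesin-1 heavy chains came first. Kif5a (chromosome 10, 127225696 to 127263363, GRCm38, minus strand), the neuron-specific heavy chain known for carrying neurofilaments and other axonal cargo, had the highest level of any kinesin in each of the 6 libraries. Kif5a stood at 220.1, 202 and 214 RPKM in female A, B and C, and at 143, 254 and 164 RPKM in male A, C and D. Its mean of 199.5 ± 40.2 RPKM (SD, n = 6) placed it at rank 272 of 14958 tested genes, and it alone supplied 27.0% ± 3.72 of the summed kinesin level (SD, n = 6). The male libraries held both the lowest and the highest value, so the sexes overlapped. Kif5c, a heavy chain also found mainly in neurons, had 65.9, 39.4 and 37.3 RPKM in female A, B and C, against 34.3, 51.7 and 64.9 RPKM in male A, C and D. Kif5b, the heavy chain used by most cell types, had 31.6, 22.2 and 23.1 RPKM in female A, B and C, against 16.1, 26.7 and 41.6 RPKM in male A, C and D. Female A and male D were the high libraries for both genes and male A the low one.

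As shares of the heavy chain sum, Kif5a held 72.5% ± 6.58, Kif5c 17.8% ± 3.95 and Kif5b 9.75% ± 2.84 (SD, n = 6). This order was the same in all 6 libraries. Male D differed most from the rest, with 60.6% Kif5a, 24.0% Kif5c and 15.4% Kif5b. The Kif5b share was 8.04% to 9.96% in the other 5 libraries.

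The light chains link kinesin-1 to its cargo adaptors. Klc1 (chromosome 12, 111758849 to 111807844, plus strand), the light chain best known from neurons, had 85.3, 67.6 and 44.1 RPKM in female A, B and C, against 123, 84.9 and 80.0 RPKM in male A, C and D. It was lowest in female C and highest in male A, and the mean was 80.7 ± 25.7 RPKM (SD, n = 6). Klc2 had 6.65, 7.44 and 8.57 RPKM in female A, B and C, against 13.9, 6.75 and 6.65 RPKM in male A, C and D. Klc4 had 5.86, 3.70 and 6.21 RPKM in female A, B and C, against 11.7, 7.31 and 5.43 RPKM in male A, C and D. Both were highest in male A by a clear margin, and the other libraries of the sexes overlapped. Klc3, a light chain known from the male germ line, had 5, 9 and 1 counts in female A, B and C, against 22, 4 and 10 counts in male A, C and D, and was not tested.

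Klc1 supplied 83.8% ± 4.66 of the light chain level, Klc2 9.03% ± 2.97 and Klc4 7.06% ± 2.06 (SD, n = 6). Female C had the lowest Klc1 share, 74.9%, and the highest shares of Klc2 (14.6%) and Klc4 (10.6%). The summed heavy chains exceeded the summed light chains 3.24-fold, 3.33-fold and 4.67-fold in female A, B and C, and 1.30-fold, 3.36-fold and 2.93-fold in male A, C and D. Male A was thus the library in which light chains came closest to heavy chains. Heavy chain genes are longer than light chain genes, and long genes were lower in male A across all tested genes. The part of length in this ratio was not tested.

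Kinesin-2 was dominated by Kif3a (chromosome 11, 53567379 to 53601967, plus strand), the subunit shared by both forms of heterotrimeric kinesin-2. Kif3a had 134, 115 and 125 RPKM in female A, B and C, against 100.0, 153 and 142 RPKM in male A, C and D, the second highest kinesin in 5 of 6 libraries. Its partner Kif3b, which with Kif3a forms the anterograde motor of cilia, had 15.6, 12.8 and 10.3 RPKM in female A, B and C, against 9.58, 18.2 and 13.4 RPKM in male A, C and D. Kif3c, the other partner, prominent in neurons, had a spread among the smallest of the tested kinesins. It stood at 9.92 to 12.7 RPKM with a mean of 11.6 ± 1.05 RPKM (SD, n = 6). Along 38.2% of its exon length Kif3c overlaps 1110002L01Rik on the opposite strand, and whether strand was used in counting is not stated in the labels or headers, so reads of the pair could not be told apart.

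Kif3a made up 83.3% ± 1.503 of the kinesin-2 level, Kif3b 8.59% ± 1.12, Kif3c 7.65% ± 1.34 and the homodimeric motor Kif17 0.457% ± 0.185 (SD, n = 6). The Kif3a level was 4.58 to 6.07 times the sum of Kif3b and Kif3c in the 6 libraries. Kifap3, the adaptor of the heterotrimer, stood at 108 ± 34.2 RPKM (SD, n = 6), near Kif3a and well above either partner; it is named for its role, after its value was seen. The order of Kif3b and Kif3c was not fixed: Kif3b was the higher in 4 of 6 libraries.

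Among the kinesin-3 genes, Kif1a (chromosome 1, 93015464 to 93101951, minus strand), the motor of synaptic vesicle precursors and dense-core vesicles, had 64.0, 63.9 and 74.2 RPKM in female A, B and C, against 46.4, 71.1 and 53.7 RPKM in male A, C and D. Kif1b, whose isoforms carry mitochondria or synaptic vesicle precursors, had 51.5, 61.9 and 61.9 RPKM in female A, B and C, against 18.9, 42.2 and 53.6 RPKM in male A, C and D. Male A was the lowest library for both and lay far below the rest for Kif1b. The Kif1b level was 0.804, 0.969 and 0.833 times that of Kif1a in female A, B and C, and 0.408, 0.593 and 0.999 times in male A, C and D, so that the pair was nearly level in male D and female B and not in male A. Kif1c, a broadly expressed relative, supplied 0.222% ± 0.0888 of the summed Kif1 level (SD, n = 6). The endosomal motors Kif13a and Kif16b averaged 2.89 ± 0.272 and 2.88 ± 0.642 RPKM, and Kif13b averaged 1.29 ± 0.263 RPKM (SD, n = 6 each).

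Kif1b is the longest gene of the family in the files, with 17608 bases of summed exon, and a level per summed exon length understates a gene whose main transcripts are shorter. Per base of the longest annotated transcript in GENCODE M21, the mean of Kif1b was 83.2 RPKM, rank 4 of the members, against 48.3 RPKM and rank 6 per summed exon. Klc1 was similarly 131 RPKM per longest transcript against 80.7 RPKM per summed exon, at rank 3 either way. Kif5a, Kif3a and Klc1 kept ranks 1 to 3 on both scales. Kif1a averaged 70.7 RPKM per longest transcript, rank 5, against 62.2 RPKM and rank 4 per summed exon. The order of Kif1a and Kif1b, and their ratio, thus depended on the length used.

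**Figure D2:**
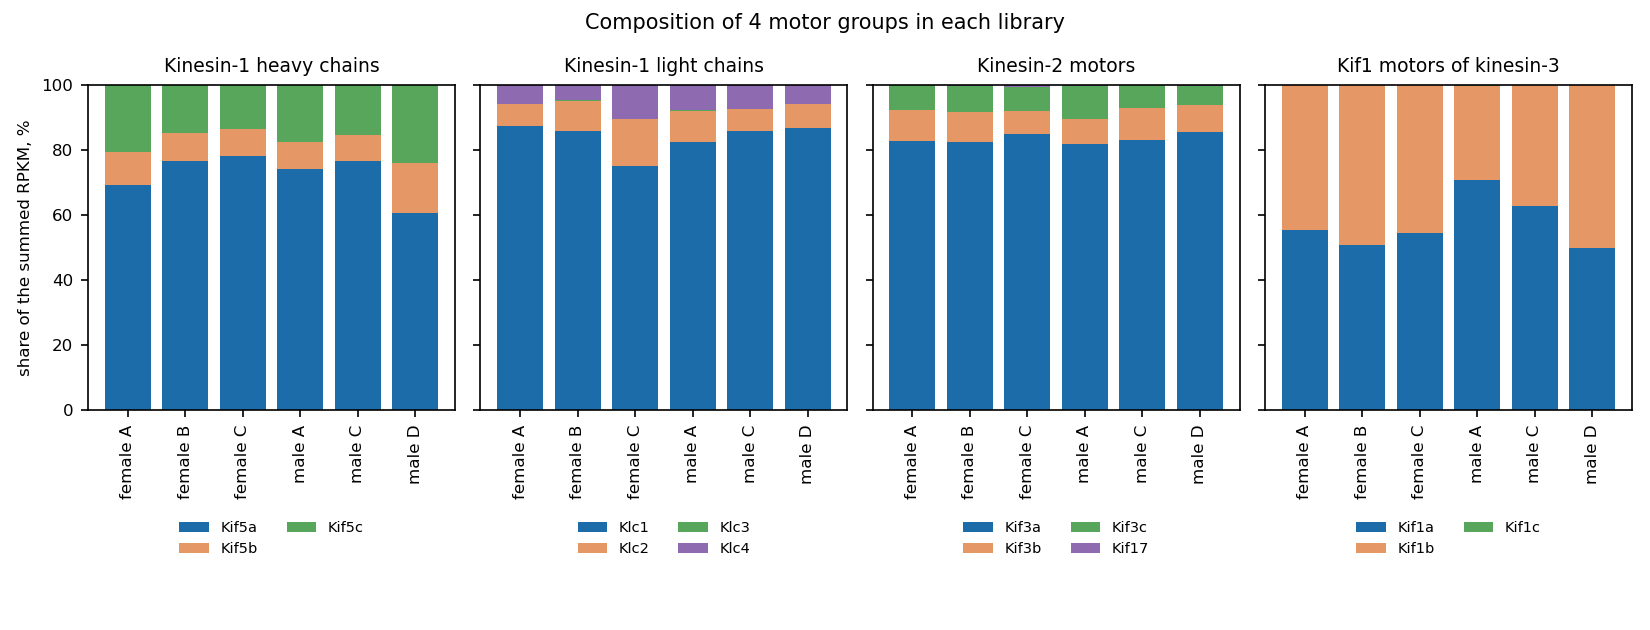
Share of the summed RPKM, in percent, of each gene within 4 motor groups, stacked to 100% for each of the 6 libraries, female libraries on the left of each panel. Kif5a, Klc1 and Kif3a form the largest share of their groups in every library, while Kif1a and Kif1b are close to equal in female B and male D. RPKM here is per summed exon length.

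Kif21a, a kinesin-4 motor that restrains microtubule growth, had 50.2, 46.4 and 41.2 RPKM in female A, B and C, against 23.4, 46.7 and 57.0 RPKM in male A, C and D. Its paralog Kif21b averaged 0.473 ± 0.141 RPKM (SD, n = 6), and Kif21a was 67.1 to 184 times higher in the 6 libraries. Kif2a, a kinesin-13 that removes tubulin from microtubule ends and in mouse neurons restrains axon branching, had 18.3, 20.0 and 18.5 RPKM in female A, B and C, against 7.32, 10.4 and 21.1 RPKM in male A, C and D. The female libraries were close together and the male libraries spread on both sides of them. Kif2a shares 17.4% of its exon length with Dimt1 on the opposite strand.

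In the order of mean levels, neighbours were often not separated. Kif5a lay above Kif3a in 6 of 6 libraries, and Kif3a above Klc1 in 5 of 6. Kif1a lay above Kif5c in 4 of 6, Kif5c above Kif1b in 4 of 6, and Kif1b above Kif21a in 3 of 6. The means of these 4 genes were 62.2 ± 10.5, 48.9 ± 14.1, 48.3 ± 16.2 and 44.1 ± 11.4 RPKM (SD, n = 6). Beyond neighbours, Kif1a lay above Kif1b in 6 of 6 libraries and above Kif21a in 5 of 6. Kif5c lay above Kif21a in 4 of 6, so Kif5c had no fixed place among them. These counts use summed exon length. Per longest transcript the mean of Kif1b was above that of Kif1a. Kif21a lay above Kif5b, and Kif5b above Kif2a, in all 6 libraries.

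Other genes of axonal transport were also read, from a list of 46 transport partners, all of which were tested. The list holds kinesin adaptors such as Kifap3 and also genes of dynein, a motor that is not a kinesin. Among the highest by mean level were the dynein light chain genes Dynlrb1 at 461 ± 40.0 RPKM and Dynll1 at 230.0 ± 25.3 RPKM, and Dctn3, a subunit of the dynein activator dynactin, at 206 ± 44.9 RPKM (SD, n = 6 each).

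The mitotic kinesins were low but detected. Of the 11 listed, 10 passed the filter on low counts, 5 had a mean of at least 1 RPKM and none reached 10 RPKM. Kif22, a chromokinesin that pushes chromosome arms toward the spindle equator, was the highest at 8.82 ± 6.15 RPKM (SD, n = 6), rank 12 of the members. By library it ranked 7 in male A and 13 to 15 elsewhere. It lay above Klc2, next in the order of means, in 1 of 6 libraries. It had 5.29, 6.31 and 7.99 RPKM in female A, B and C, against 21.2, 6.37 and 5.72 RPKM in male A, C and D. Kif22 averaged 5.07 RPKM per base of its longest transcript, at rank 15. That transcript has 3586 bases, more than the 2063 bases of exon that were counted, so this length includes bases without counted reads.

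Kif20a and Kif23 encode motors of the central spindle that act in cytokinesis. Kif20a had 3.01, 2.92 and 2.63 RPKM in female A, B and C, against 9.33, 3.44 and 2.02 RPKM in male A, C and D. Kif23 had 2.36, 1.78 and 1.14 RPKM in female A, B and C, against 5.50, 2.08 and 1.95 RPKM in male A, C and D. Male A was far above the rest for both genes, and male C and male D lay among or near the female libraries. Kif20a shares 33.2% of its exon length with Cdc23 on the opposite strand, so part of its count may belong to that gene.

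Kif2c, the kinesin-13 that depolymerises microtubules at centromeres, had 1.21, 1.65 and 1.56 RPKM in female A, B and C, against 5.69, 1.26 and 0.748 RPKM in male A, C and D. Kif11, the motor that pushes spindle poles apart, had 1.48, 0.793 and 0.884 RPKM in female A, B and C, against 3.22, 1.12 and 1.15 RPKM in male A, C and D. Kif15, which can stand in for Kif11 in the spindle, had 0.275, 0.495 and 0.624 RPKM in female A, B and C, against 1.18, 0.487 and 0.687 RPKM in male A, C and D. The same library, male A, was highest for all 3 genes. Kif11, Kif15 and Kif23 are also known from postmitotic neurons, so a low level does not by itself mark dividing cells.

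Kif4, an X-linked chromokinesin that works at the central spindle with Prc1, had 0.472, 0.492 and 0.373 RPKM in female A, B and C, against 1.35, 0.557 and 0.696 RPKM in male A, C and D. All 3 male libraries lay above all 3 female libraries. Kif14, another cytokinesis motor, had 34, 13 and 14 counts in female A, B and C, against 62, 40 and 4 counts in male A, C and D. Kif18b, which acts at astral microtubule ends, had 5, 9 and 6 counts in female A, B and C, against 38, 7 and 0 counts in male A, C and D, and was not tested.

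Kif20b and Kif18a did not follow the others. Kif20b, known for cytokinesis and for the shape of neurons, had 0.394, 0.358 and 0.991 RPKM in female A, B and C, against 0.338, 0.644 and 1.12 RPKM in male A, C and D. Kif18a, which dampens chromosome movements at metaphase, had 0.511, 0.237 and 0.499 RPKM in female A, B and C, against 0.346, 0.351 and 0.644 RPKM in male A, C and D. Both were highest in male D, and male A held the lowest value of Kif20b.

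Summed over the lists, mitotic kinesins reached 15.2, 15.2 and 16.8 RPKM in female A, B and C, against 49.1, 16.5 and 14.8 RPKM in male A, C and D. Axonal transport kinesins reached 752, 662 and 666 RPKM in female A, B and C, against 559.7, 784 and 702 RPKM in male A, C and D. The ratio of axonal transport to mitotic kinesins was 49.4, 43.4 and 39.5 in female A, B and C, against 11.4, 47.5 and 47.6 in male A, C and D. The axonal transport list, light chains included, therefore exceeded the mitotic list in every library. The factor was about the same in 5 of them, and male A lay far below. Light chains supplied 149 of the 559.7 RPKM in male A, against 58.9 to 99.0 RPKM in the other libraries. In male A they were thus high, unlike the summed heavy chains. The mean ratio was 39.8 ± 14.4 over 6 libraries (SD) and 45.5 without male A. Per base of the longest transcript the mean over 6 libraries was 52.0.

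**Figure D3:**
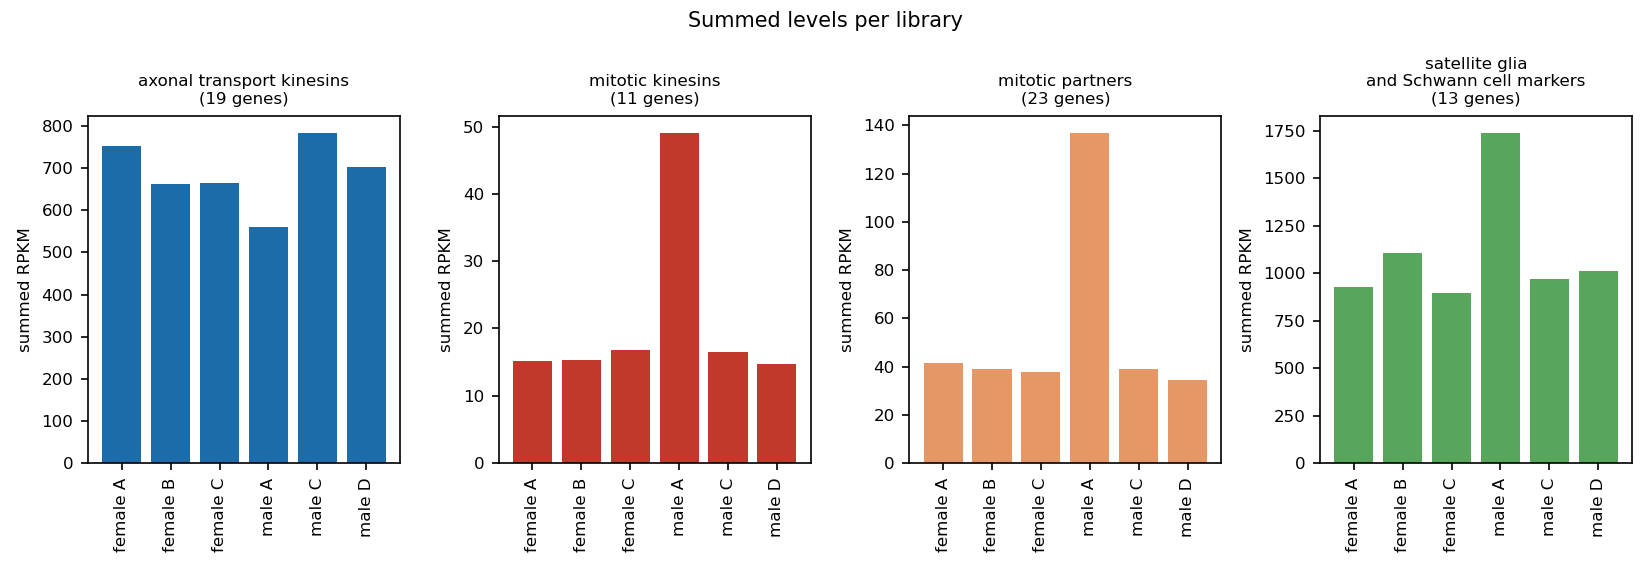
Summed RPKM per library for axonal transport kinesins, mitotic kinesins, mitotic partners, and satellite glia and Schwann cell markers, female libraries on the left of each panel and every bar axis starting at 0. Male A is the tallest bar for the mitotic kinesins (49.1 RPKM), the mitotic partners (137 RPKM) and the glial markers (1739 RPKM), and the shortest for the axonal transport kinesins.

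In male A, 9 of the 11 mitotic kinesins had their highest level, 8 of them among the 10 tested, against 31.14% of all tested genes. Relative to the median of the other 5 libraries, the level in male A had a median of 2.85 for the 10 tested mitotic kinesins, 0.719 for the 18 tested axonal transport kinesins and 0.992 for all tested genes. Of 23 mitotic partners found in the files, 22 were highest in male A, and their sum was 41.5, 38.9 and 37.6 RPKM in female A, B and C, against 137, 38.9 and 34.4 RPKM in male A, C and D. The 4 highest of these were Ccnb2, a cyclin that drives entry into mitosis, at 5.17 ± 6.81 RPKM, Prc1, which bundles central spindle microtubules, at 4.89 ± 2.18 RPKM, the mitotic kinase gene Cdk1 at 4.59 ± 4.08 RPKM, and Cdca8, a subunit of the chromosomal passenger complex, at 4.27 ± 2.49 RPKM (SD, n = 6). Ccnb2 stood at 19.0 RPKM in male A. Without male A the means were 2.41 ± 0.930 RPKM for Ccnb2, 4.03 ± 0.636 for Prc1, 2.94 ± 0.677 for Cdk1 and 3.27 ± 0.491 for Cdca8 (SD, n = 5), and Racgap1, a subunit of the centralspindlin complex with Kif23, took the place of Ccnb2 among the 4 highest at 3.41 ± 0.339 RPKM. Of the 2 kinesins in the partner list, Cenpe, which carries chromosomes to the spindle equator, averaged 0.433 ± 0.138 RPKM and Kifc1, a minus-end motor of the spindle, averaged 0.171 ± 0.142 RPKM (SD, n = 6).

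Most markers of glia, fibroblasts, endothelial cells and macrophages moved with the mitotic kinesins in male A. Relative to the median of the other 5 libraries, the level in male A had a median of 3.60 for 12 tested glial markers, 4.87 for 8 fibroblast markers, 3.89 for 8 endothelial and pericyte markers and 3.31 for 3 macrophage markers, against 0.810 for 13 sensory neuron markers and 0.415 for 5 erythroid markers. The 2 glial markers with the highest mean differed: Pmp22 had 643, 787 and 487 CPM (counts scaled to library total, not to length) in female A, B and C, against 1204, 595 and 692 CPM in male A, C and D, whereas Fabp7 had 414, 474 and 549 CPM in female A, B and C, against 337, 440 and 483 CPM in male A, C and D. Of the 2 highest fibroblast markers, Dcn had 269, 306 and 396 CPM in female A, B and C, against 289, 272 and 288 CPM in male A, C and D, and Col1a2 had 106, 85.0 and 109.5 CPM in female A, B and C, against 771, 87.1 and 97.8 CPM in male A, C and D. Gfap was the glial marker with no counts in some libraries, and no fibroblast marker was at 0 in any. In such bulk libraries, more cells of a type and more RNA per cell cannot be told apart, and the part of other cell types in the mitotic kinesin level was not tested. Endothelial and pericyte markers summed to 8.64 to 16.0 RPKM in females and 14.5 to 22.3 RPKM in males, with 8 of 9 markers highest in male A. Macrophage markers summed to 8.84 to 10.4 RPKM in females and 9.87 to 14.8 RPKM in males, with 6 of 8 highest in male A. Of the 3 tested, C1qb and Lyz2 had few counts, with means of 0.733 and 0.644 CPM. Fcer1g averaged 7.39 CPM, and its level in male A was 1.26 times the median of the other 5 libraries. Ptprc, which was not tested, was lowest in male A. Erythroid markers summed to 22.8 to 68.2 RPKM in females and 12.1 to 66.2 RPKM in males, with 0 of 6 highest in male A. Csf1r and C1qa of the macrophage list were at 0 in some libraries.

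Gene length also moved with the pattern. The tested kinesin genes of 2000 to 4000 bases had a median level in male A of 2.82 times the other libraries (5 genes), those of 4000 to 6000 bases 1.365 times (12 genes), those of 6000 to 8000 bases 0.686 times (12 genes) and those of at least 8000 bases 0.709 times (6 genes). Over all tested genes the same classes gave 1.09, 0.966, 0.835 and 0.696. Of the 10 tested mitotic kinesins, 3 were 2000 to 4000 bases long, 5 were 4000 to 6000 and 2 were at least 8000. Within these classes the median level in male A was 3.20, 2.74 and 2.60 times the other libraries for the mitotic kinesins, against 1.37, 1.145 and 0.664 for the other tested kinesins (2, 7 and 4 genes). The longest mitotic kinesin, Kif14 with 10211 bases, was 4.50 times higher in male A, whereas Kif18a with 9832 bases stood at 0.692 times. In median the mitotic kinesins were higher in male A than other kinesins of their length class, with few genes in each class. In the longest class that median lies between Kif14 and Kif18a, the only 2 mitotic genes there. The part of gene length in the pattern of male A was not tested.

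The mitotic kinesins also varied more than the transport kinesins over the libraries. The median SD of log2 CPM was 0.740 for the 10 tested mitotic kinesins, against 0.382 for the 18 tested axonal transport kinesins, 0.275 for the 46 transport partners and 0.364 for all tested genes. Without male A it was 0.418 for the mitotic kinesins, 0.239 for the axonal transport kinesins and 0.292 for all tested genes. Mean levels were 1.28 to 18.2 CPM for the tested mitotic kinesins and 1.68 to 1259 CPM for the tested transport kinesins. The lists were not matched on level, and the part of counting error in these SDs was not tested. The smallest SD of any tested kinesin was that of Kif3c, 0.134, with Kif13a close to it at 0.137. Without female A the smallest was 0.1185 among the kinesin-3 genes and 0.1394 among the kinesin-2 genes, so this order was not fixed. The largest SD was that of Kif26a, 1.66.

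Promoter sequence offered a property that the rule did not use. RefSeq promoter windows (250 bases before to 50 bases after the annotated start, GRCm38.p6) were given for 35 of the 44 members, with 10 windows for the mitotic list and 16 for the axonal transport list. They were searched on both strands for TTTGAA and TTCGAA, the core letters of the cell cycle genes homology region (CHR) through which many late cell cycle genes are repressed in resting cells, and for CCAAT, the letters bound by NF-Y. The letters TTTGAA occurred in 9 of 10 mitotic kinesin windows (90%), in 1 of 16 axonal transport windows (6.25%, Kif1a) and in 17.89% of 32851 windows of the table. The Kif1a match lay in a window at a start inside the gene (chr1:93082431-93082730). The window at the 5′ end of Kif1a held none of the words. CCAAT occurred in 6 of 10 mitotic windows, in 37.5% of axonal transport windows and in 37.41% of all windows. Either CHR word together with CCAAT occurred in 6 of 10 mitotic windows, in 0 of 16 axonal transport windows and in 7.525% of all windows. The windows of 21 mitotic partner starts held TTTGAA in 76.2% and CCAAT in 90.5%. The median GC content was 60.2% in mitotic windows, 68.7% in axonal transport windows and 52.7% in all windows. A match describes the letters alone, and for Kif18a, the mitotic kinesin with no match, says only that these letters are not in its window.

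The windows of 4 tested mitotic kinesins, chosen because CHR and CCAAT words lie within 50 bases of each other near the start, are given 5′ to 3′ on the strand of the gene, Kif11 from chr19:37376132-37376431 (plus), Kif22 from chr7:127042371-127042670 (minus), Kif23 from chr9:61946750-61947049 (minus) and Kif4 from chrX:100625815-100626114 (plus), with the matched words in capitals (TTCAAA and ATTGG are TTTGAA and CCAAT read on the other strand).
Kif11: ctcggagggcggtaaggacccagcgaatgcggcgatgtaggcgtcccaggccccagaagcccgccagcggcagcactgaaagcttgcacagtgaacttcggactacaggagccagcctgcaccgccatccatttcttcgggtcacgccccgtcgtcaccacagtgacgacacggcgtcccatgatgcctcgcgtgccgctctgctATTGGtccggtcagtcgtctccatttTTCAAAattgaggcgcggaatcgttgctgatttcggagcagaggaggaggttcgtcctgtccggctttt
Kif22: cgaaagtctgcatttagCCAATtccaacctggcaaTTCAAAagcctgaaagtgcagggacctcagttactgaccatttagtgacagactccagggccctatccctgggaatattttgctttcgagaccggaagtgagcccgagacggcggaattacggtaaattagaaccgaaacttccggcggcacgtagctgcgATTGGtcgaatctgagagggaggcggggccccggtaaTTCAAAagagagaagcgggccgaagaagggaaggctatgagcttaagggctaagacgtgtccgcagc
Kif23: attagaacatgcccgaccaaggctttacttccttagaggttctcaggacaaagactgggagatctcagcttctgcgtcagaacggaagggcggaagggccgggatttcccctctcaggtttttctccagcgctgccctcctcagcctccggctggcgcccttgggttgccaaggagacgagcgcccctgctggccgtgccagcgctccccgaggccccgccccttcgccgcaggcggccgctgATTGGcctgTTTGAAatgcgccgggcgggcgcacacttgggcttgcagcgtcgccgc
Kif4: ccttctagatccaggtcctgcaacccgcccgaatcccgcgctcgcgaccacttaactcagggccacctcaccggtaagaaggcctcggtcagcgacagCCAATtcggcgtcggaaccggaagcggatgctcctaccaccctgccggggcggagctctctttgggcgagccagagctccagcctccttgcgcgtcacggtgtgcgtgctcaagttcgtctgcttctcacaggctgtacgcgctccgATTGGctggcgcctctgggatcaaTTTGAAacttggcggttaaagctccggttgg

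For contrast, the window of Kif3a holds a lone CCAAT word and that of Kif5c holds none of the words, both genes being among the highest transport kinesins (Kif3a from chr11:53567119-53567418 (plus) and Kif5c from chr2:49619036-49619335 (plus)).
Kif3a: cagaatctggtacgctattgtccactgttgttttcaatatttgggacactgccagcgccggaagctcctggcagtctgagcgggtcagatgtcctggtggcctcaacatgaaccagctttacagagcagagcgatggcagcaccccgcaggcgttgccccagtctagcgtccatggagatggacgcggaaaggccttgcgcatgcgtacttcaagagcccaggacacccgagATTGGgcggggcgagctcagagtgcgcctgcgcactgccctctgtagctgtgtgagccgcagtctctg
Kif5c: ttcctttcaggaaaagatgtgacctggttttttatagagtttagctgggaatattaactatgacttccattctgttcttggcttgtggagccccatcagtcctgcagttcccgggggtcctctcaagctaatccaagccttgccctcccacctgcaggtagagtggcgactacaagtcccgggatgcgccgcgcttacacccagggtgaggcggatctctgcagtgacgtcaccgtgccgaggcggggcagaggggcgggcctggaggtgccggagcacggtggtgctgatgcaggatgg

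Counted from the annotated start, the TTTGAA word began at -19 in Kif11, at -17 in Kif22, at 3 in Kif23 and at 20 in Kif4, with the nearest CCAAT word at -45, -54, -7 and -5. Kif15 (-19), Kif18b (4) and Kif20b (8 and 14) also held a TTTGAA word close to the start, whereas Kif2c (-103) and Kif14 (-228) held it further away. The starts used for Kif2c and Kif14 lie inside the gene as counted, not at its 5′ end. The Kif2c window ends at 117179022, against 117182639 for the gene (minus strand). The Kif14 window begins at 136467598, against 136466343 for the gene (plus strand). Both windows are among the 10 mitotic windows counted above. Within 50 bases of the start the word was found in 7 of 10 mitotic windows, against 4.94% of all windows, a distance chosen after the positions were seen.

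**Figure D4:**
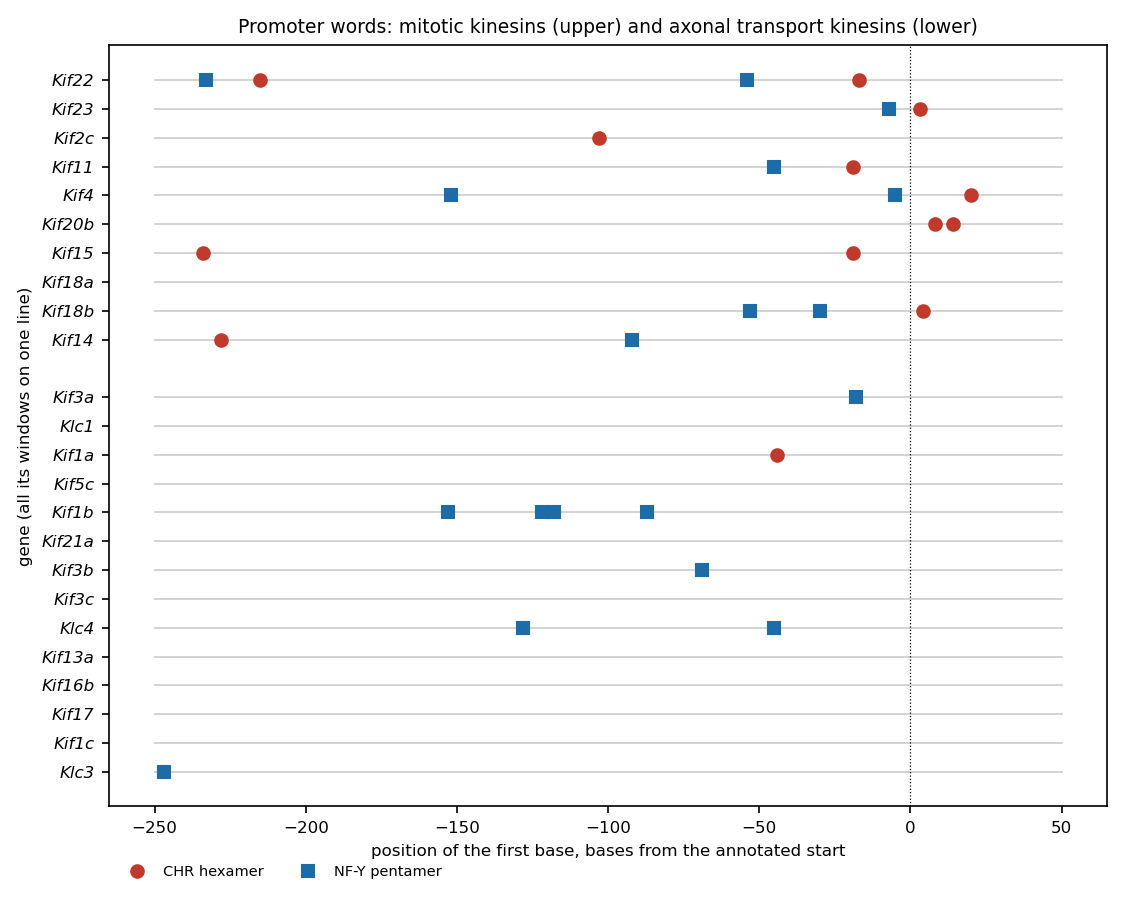
Position of CHR words (circles) and CCAAT words recognised by NF-Y (squares) in promoter windows of mitotic kinesins (upper rows) and axonal transport kinesins (lower rows), in bases from the annotated start (dotted line). Circles lie on 9 of the 10 mitotic rows, 7 of them close to the start, and on 1 of the transport rows. The circles of Kif1a, Kif2c and Kif14 come from windows at starts inside the gene.

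Kinesins of cilia and other kinesins were low. Kif9, known from motile cilia and sperm tails, averaged 3.02 ± 0.423 RPKM, Kif6 0.353 ± 0.147 RPKM, and Kif7, which tunes Hedgehog signalling at the tip of the cilium, 0.207 ± 0.0731 RPKM (SD, n = 6 each). Kif24, a kinesin-13 of the centriole, averaged 0.310 ± 0.0906 RPKM (SD, n = 6). Kif1bp, the KIF1-binding protein gene that is no motor, averaged 3.61 ± 0.532 RPKM (SD, n = 6). The 8 members that did not pass the filter were Kif16bos, Klc3, Kif18b, Kif19a, Kif27, Kif28, Kif12 and Kif2b. Their total counts over 6 libraries were between 0 for Kif2b and 65 for Kif18b, and with 0 counts in a library the level can still reach 0.102 to 0.168 CPM, depending on the library and with counting error alone considered.

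The sexes were set against each other with edgeR's quasi-likelihood test over 14958 genes. None of the 36 tested members was called at a Benjamini-Hochberg adjusted p of 0.05, and the share called among all tested genes was 0.0267%, which is 4 genes, all on the Y chromosome. Unadjusted p by edgeR was under 0.05 for 3 members, 2 with a positive and 1 with a negative change, against 434 positive and 227 negative among all tested genes. DESeq2 called 1 member, among 13 genes called in all. Of the members, 16 had a positive log2 change (higher in females) and 20 a negative one. The sexes did not overlap for 2 of 36 members, Kif26b and Kif4, against 8.06% of all tested genes.

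**Figure D5:**
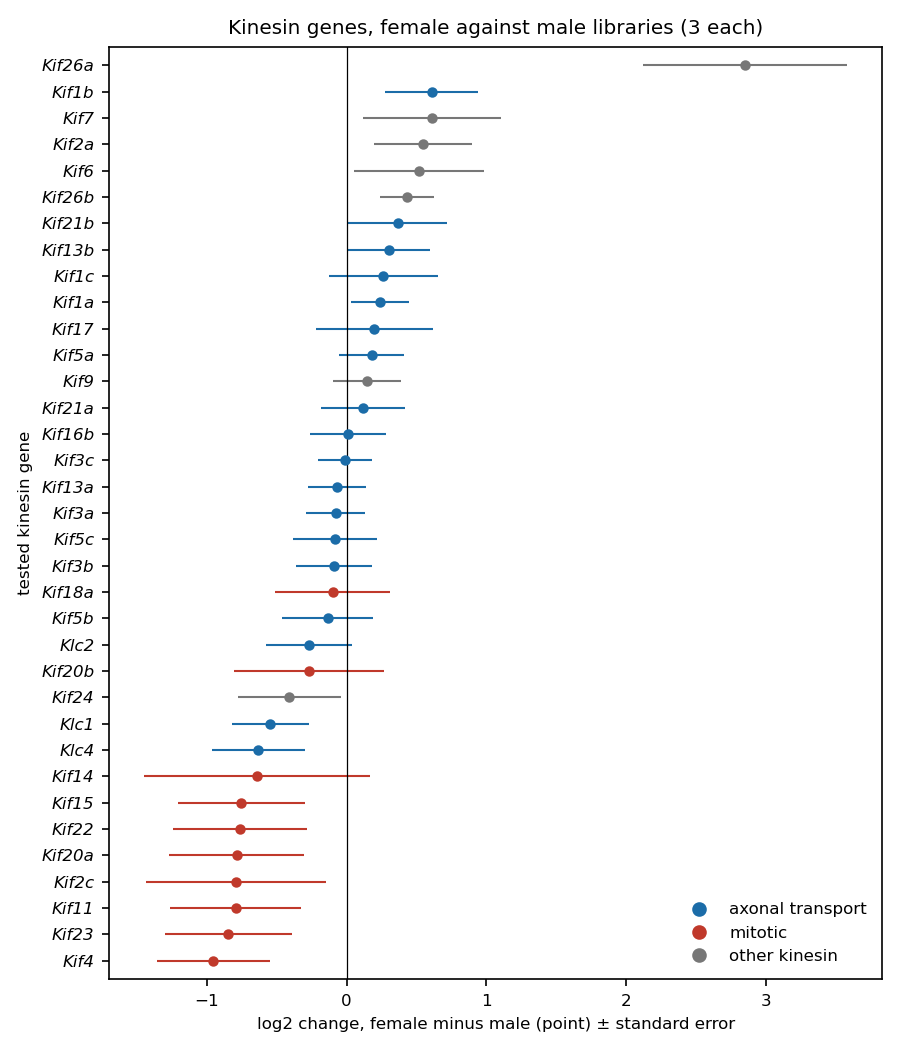
Log2 change, female minus male, with its standard error from edgeR (3 libraries of each sex), for each tested kinesin gene, ordered by change. Kif26a lies at the top at 2.85, and the 10 mitotic genes (red) all lie below 0, against 6 of the 10 in a fit without male A, which is not drawn.

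Kif26a (chromosome 12, 112146208 to 112181747, plus strand) encodes an atypical kinesin without motor activity that in mouse enteric neurons restrains GDNF and Ret signalling by binding Grb2. It had 19, 134 and 165 counts, or 0.125, 1.07 and 1.19 RPKM, in female A, B and C, against 14, 19 and 20 counts, or 0.106, 0.0870 and 0.139 RPKM, in male A, C and D. Female B and female C were high, while female A lay within the range of the males. The log2 change was 2.85 with a standard error of 0.731 (higher in 2 of 3 female libraries than in any male library), with an unadjusted p of 0.00348 and an adjusted p of 0.961 by edgeR, and an adjusted p of 0.0405 by DESeq2. Female B and female C carry later record numbers in the labels than the other 4 libraries and are the only libraries from 1 embryo each. With the record set as a term in the edgeR fit the log2 change was 0.19 (adjusted p = 1.00), and within the first record set, which left 1 female library against 3 male, it was 0.19 (adjusted p = 1.00, the lone female library being assumed to vary like the males). Female sex and the second record set cannot be told apart for female B and female C, since no male library belongs to that set.

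Its paralog Kif26b, known from kidney development in mouse, had 5.85, 5.45 and 6.77 RPKM in female A, B and C, against 4.27, 4.68 and 4.42 RPKM in male A, C and D. All 3 females lay above all 3 males, with a log2 change of 0.43 (standard error 0.192, edgeR unadjusted p = 0.0496, adjusted p = 0.961). The change was 0.39 with the record set as a term, with an adjusted p of 1.00. Kif4 was the member with the lowest change, -0.95 (standard error 0.402, edgeR unadjusted p = 0.0414, adjusted p = 0.961), and -0.49 without male A. Genes on the opposite strand share exon with both, Gm16564 with 11.6% of the length of Kif26b and Pdzd11 with 15.1% of that of Kif4, so part of either count may belong to them.

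The next smallest p-values belonged to Klc1 (log2 change -0.55, standard error 0.278, edgeR adjusted p = 0.961), Klc4 (-0.63, standard error 0.334, edgeR adjusted p = 0.961) and Kif23 (-0.85, standard error 0.456, edgeR adjusted p = 0.961), all with male A as the highest library. Without male A the log2 changes were -0.33 for Klc1, -0.28 for Klc4 and -0.19 for Kif23, each with an edgeR adjusted p of 0.999. Among the mitotic kinesins, all 10 tested members had a negative change, with a median of -0.78. Without male A, 6 of the 10 had a negative change and 4 a positive one, with a median of -0.15. All 22 tested mitotic partners also had a negative change, with a median of -0.80, and 0 of them was called by edgeR, with 2 at an unadjusted p under 0.05. Without male A, 11 of 23 mitotic partners then tested had a negative change and 12 a positive one, with a median of 0.0021. The common direction of both mitotic lists was thus not present without male A. The 18 tested axonal transport kinesins were split, 9 positive and 9 negative, with a median of -0.0012, against -0.0036 for all tested genes. The split was 8 positive and 10 negative with library totals, RLE or upper quartile factors. It was 13 positive and 5 negative with the record set as a term (median 0.17), 12 and 6 with the replicate block, and 13 and 6 within the first record set. The heavy chains changed by -0.14 to 0.18 and the kinesin-2 genes by -0.09 to 0.20, none of them called. Of the 46 tested transport partners 0 was called by edgeR, with 2 at an unadjusted p under 0.05, 20 positive and 26 negative changes and a median of -0.05.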

How the data were processed

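Libraries were made by the submitters with a SMARTer ultra low input kit, which amplifies full-length cDNA and adds no molecular identifiers, per the labels' protocols. Reads were aligned with Subread and counted per gene with featureCounts 1.4.5 on GRCm38.p2, per the submitters' processing notes; the Subread version and the settings for strand and multi-mapped reads are not given in these sources. The authors deposited raw counts per Ensembl gene with the summed exon length. Deposited CPM values are the authors' counts scaled to the library total, and deposited RPKM values are that CPM per kilobase of the length; both were recomputed from the counts within a tolerance of 1e-06, and only counts and lengths were used further. Symbols were found for 40254 of 41388 identifiers. Levels are CPM and RPKM with TMM factors (0.922 to 1.08) from edgeR 4.0.16 in R 4.3.3.

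Sex was tested with glmQLFit and glmQLFTest on an intercept and sex, genes kept by filterByExpr, and Benjamini-Hochberg adjustment over all 14958 genes, after a check on simulated data; the biological coefficient of variation was 31.1%. Replicates came from different embryos, per the labels. SDs of log2 CPM used a prior count of 2. Overlapping exons were read from the exon intervals deposited with the counts, and longest transcripts from GENCODE M21. Near-identical copies were sought among GENCODE M21 transcripts with blastn 2.17.0 (at least 95% identity). Alternatives were other normalizations and filters, DESeq2 1.42.0, limma 3.58.1 voom, leaving out each library, a replicate block, the record set or number of embryos as terms, TPM, and the longest transcript as length.

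Members, gene lists and tests were chosen with earlier results of these data known, and Kif26a had already been named among them. Values in every library are given for the 10 members with the highest mean RPKM, the kinesin-1 chains, mitotic members of at least 1 CPM, the 6 tested members with the smallest p and any member called under an alternative. Of the partner lists the 4 highest members are named, and of the marker lists the 2 highest, except for items not reported here. Kif25 and Sgol1 were listed but not matched by symbol.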

Additional observations from a re-analysis of the deposited data

Results flagged for a closer look

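Of 42 values examined over the 6 libraries (the level of each tested kinesin and the sums, ratios and shares), 12 had 1 library set apart from the other 5 by a gap of over 0.625 of the whole range (Dixon's 95% limit for 6 samples). Chance sets apart about 1 in 20 such groups. In 11 of the 12 the library was male A.

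Male A was high for the mitotic genes Kif22 (21.24 RPKM), Kif20a (9.328 RPKM), Kif2c (5.694 RPKM), Kif23 (5.501 RPKM), Kif11 (3.223 RPKM) and Kif4 (1.347 RPKM), and for the summed level of the mitotic kinesins (49.08 RPKM). It was also high for the light chain gene Klc2 (13.94 RPKM) and the centriolar kinesin gene Kif24 (0.4895 RPKM). Male A was low for the endosomal motor gene Kif13b (0.7841 RPKM) and for the ratio of axonal transport to mitotic kinesins (11.4). Most markers of glia, fibroblasts, endothelial cells (8 of 9 highest in male A) and macrophages (6 of 8, with 3 tested) moved with male A too. So did the gene length trend. Among the exceptions, Fabp7, S100b and Ptprc were lowest in male A. Dcn and Rgs5 lay within the range of the other libraries there. The part of other cell types and of gene length in these values was not tested.

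Male D was set apart by the share of Kif5b among the heavy chains (15.39%), against 8.04% to 9.96% elsewhere.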

How the results depend on the processing

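The count of genes called between the sexes was 4 with edgeR, and it moved to 14 with no low-count filter, 13 with DESeq2, 1 with limma voom, 0 with the record set as a term and 0 within record set 1; leaving out 1 library gave 0 to 5, with 0 without female A. Members called were 1 with DESeq2 (Kif26a) and 0 in every other fit. Letters A and C are shared by the sexes but mark different embryos, and deviations of same-letter libraries correlated at -0.0777 and 0.0521; the replicate block gave 77 called genes and 0 members. The median log2 change of the mitotic kinesins was -1.08 to -0.15 when 1 library was left out, -0.15 being without male A. The 10 negative changes of that list became 8 with the replicate block and 9 with record set or number of embryos as terms. The median SD of log2 CPM was 0.239 to 0.413 for axonal transport kinesins and 0.418 to 0.821 for mitotic kinesins when 1 library was left out, both lowest without male A. Across alternatives the edgeR, DESeq2 or voom adjusted p of Kif26a ranged from 0.0405 to 1.00 and its log2 change from 0.19 to 3.36; Kif26a did not pass the stricter filter of 1 CPM. Library totals in place of TMM factors moved the median log2 change of all genes to -0.117. The heavy chain shares and the axonal to mitotic ratio stayed within 1 SD of the reported means under all alternatives run. For the ratio that SD, 14.4, includes male A and is wide. Per longest transcript the mean ratio was 52.0, against 39.8 per summed exon length, so its size depended on the length used. With 3 libraries a sex and amplified cDNA without molecular identifiers, members with few counts, such as Kif14, Kif18b and Klc3, are the least certain.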
